A study of Mus musculus with 24 samples.

Results

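A set of 10 genes of phospholipase A2 activity and prostaglandin synthesis was followed in the hippocampus of mice that had received corticosterone overnight. The genes were *Pla2g3*, *Pla2g4a*, *Pla2g6*, *Ptgs1*, *Ptgs2*, *Ptgds*, *Ptges*, *Ptges2*, *Hpgd* and *Anxa1*, and each was read through every microarray probe whose transcript identifier belonged to it. This gave 14 probes for the 10 genes, of 56605 unique probes and 23787 named genes on the array. *Pla2g6* and *Anxa1* had 2 probes each and *Ptges* had 3, so the probes of these genes are not independent of each other.

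All animals were male Swiss-Webster mice, with an age of 12 weeks given by the study. The paper describes a habituation of some weeks in single cages before the treatment, so that the mice were older when sampled. During the 12 h dark phase, which is the active period of mice, they drank water with either corticosterone (100 µg/ml) and hydroxypropyl-β-cyclodextrin (0.45%), the carrier that dissolves the steroid, or with the carrier alone. The hippocampus was taken during the first, the fifth or the ninth hour of the following light phase, the resting period, from 8 corticosterone-treated and 8 control animals for each of the 3 time points. By the methods of the study, the control animals were brothers of treated ones and each group drew on several litters, so that animals within and across groups can share a litter; the litter of single animals is not given in the labels, and no fit or correlation here accounts for it. RNA of 48 single animals was hybridized on 24 two-color arrays on 3 slides, each array with 1 control animal in the Cy3 channel and 1 corticosterone-treated animal in the Cy5 channel. The dyes were never exchanged, so that the better binding of a probe to 1 of the dyes enters every comparison of treated with control animals by a fixed amount. That amount cannot be told apart from an effect of corticosterone, but it cancels when time points are compared within a channel or when the size of the effect is compared between time points.

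Phospholipases A2 cut membrane phospholipids and release arachidonic acid. The cyclooxygenases *Ptgs1* and *Ptgs2* turn arachidonic acid into prostaglandin H2, and terminal synthases convert this into single prostaglandins, such as prostaglandin D2 (*Ptgds*) and prostaglandin E2 (*Ptges*, *Ptges2*), which *Hpgd* inactivates by oxidation. Glucocorticoids are known in many tissues to restrain this pathway, in part through annexin A1 (*Anxa1*), an inhibitor of phospholipase A2. In the hippocampus, *Ptgs2* is known as a gene of excitatory neurons that follows their activity, and *Ptgds* as a gene of the leptomeninges, the choroid plexus and oligodendrocytes.

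The largest difference was found for *Pla2g3*, a secreted phospholipase A2, with a signal intensity 4.27-fold higher in corticosterone-treated than in control animals during the first hour, 3.87-fold higher during the fifth and 2.28-fold higher during the ninth hour. *Ptgds* was 1.61-, 1.58- and 1.59-fold higher at the same time points. *Pla2g4a*, *Ptgs1* and 1 of the 3 *Ptges* probes were lower during the first or the fifth hour or both, and no probe of *Pla2g6*, *Ptgs2*, *Ptges2*, *Hpgd* or *Anxa1* passed the threshold, an adjusted p under 0.05 over all 56605 probes, at any time point. Both directions were thus present among enzymes of the same step, with 1 phospholipase A2 higher and another lower.

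Of the 14 probes, 4 displayed significant differences during the first hour (2 higher and 2 lower), beside 17.5% of all probes tested (8.84% higher and 8.67% lower). During the fifth hour 5 probes did so (2 higher and 3 lower), beside 18.1% of all probes (8.62% higher and 9.47% lower). During the ninth hour 2 probes, those of *Pla2g3* and *Ptgds*, were higher and 0 were lower, beside 14% of all probes (7.01% higher and 6.97% lower). Counted as genes through the brightest probe of each, 3, 4 and 2 of the 10 genes passed at the first, the fifth and the ninth hour, beside 20.7, 20.8 and 15.6% of all 23787 genes. The median log2 fold change of the 14 probes was -0.02, -0.02 and -0.05 at the 3 time points, and that of all probes lay within 0.001 of 0.

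**Figure D1:**
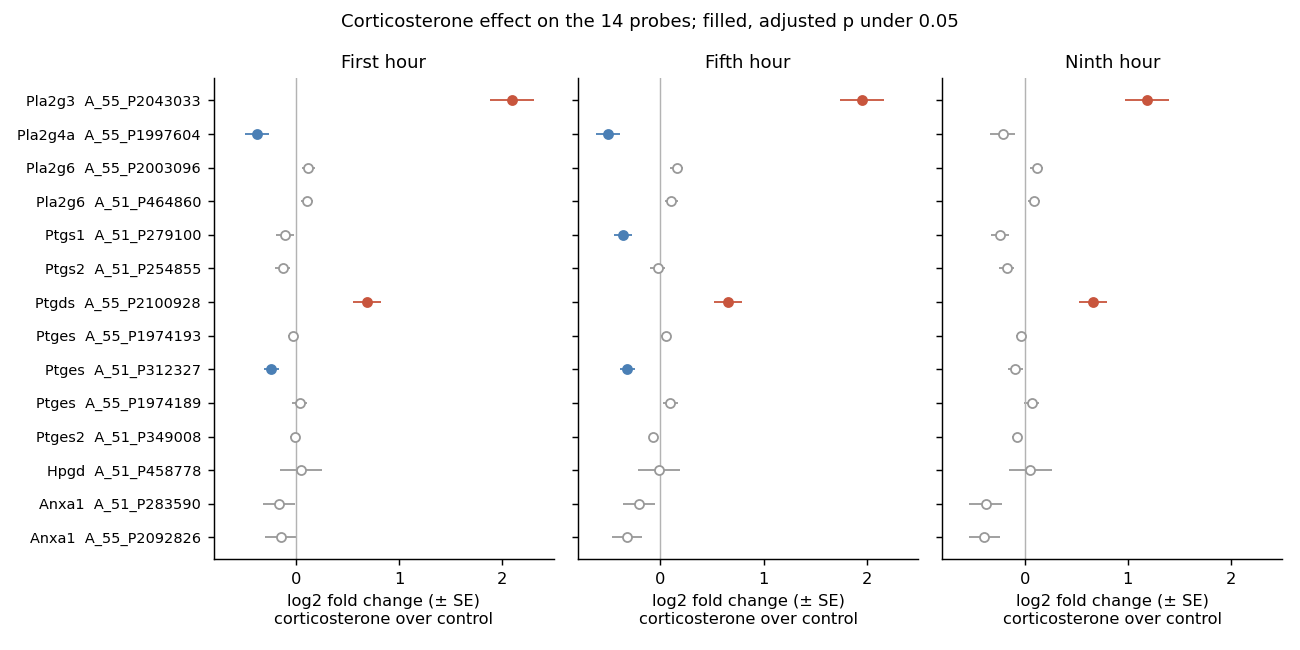
Log2 fold change of corticosterone-treated over control animals (x axis, dimensionless; point and bar, estimate ± SE of the limma fit) for each of the 14 probes (rows) during the 3 hours of the resting period examined. Filled points have an adjusted p under 0.05, red for higher and blue for lower; *Pla2g3* stands at 2.09, 1.95 and 1.19 and *Ptgds* between 0.66 and 0.69.

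By the test of the Agilent software, all spots of the 14 probes were well above background on every array and in both channels, except 1 spot of an *Anxa1* probe in a control animal of the first hour, and 0 spots were saturated. The 8 hippocampal neuron markers examined (among them *Prox1*, *Camk2a* and *Slc17a7*) were well above background in all animals. Over all spots that were not controls, 60.8 to 67.2% were well above background in the Cy3 and 64.0 to 73.5% in the Cy5 channel. By hour, slide 1 carried 2, 2 and 4 arrays, whereas slides 2 and 3 carried 3, 3 and 2. In whole tissue, fewer cells of a type and less RNA per cell cannot be told apart.

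The 250 bases before the annotated start site were read from RefSeq (mouse build GRCm38.p6) for the 9 members that have an entry there; *Pla2g3* is not among them. Those of *Ptgds*, *Pla2g4a* and *Ptgs1* are shown, since these are the members with a significant difference through the probe that stands for the gene. They lie at chr2:25469750-25469999 on the minus strand, chr1:149961291-149961540 on the minus strand and chr2:36230176-36230425 on the plus strand, and each is written 5′ to 3′ on the strand of the gene. The start sites of these entries need not be the outermost ends of the genes as annotated: that of *Pla2g4a* is, whereas that of *Ptgds* lies 361 bases and that of *Ptgs1* 13684 bases inside the gene. Capitals mark the 6 bases AGAACA of a monomer site of the glucocorticoid receptor (here on the opposite strand as TGTTCT), the only match of the 3 motifs searched in these windows.
Ptgds: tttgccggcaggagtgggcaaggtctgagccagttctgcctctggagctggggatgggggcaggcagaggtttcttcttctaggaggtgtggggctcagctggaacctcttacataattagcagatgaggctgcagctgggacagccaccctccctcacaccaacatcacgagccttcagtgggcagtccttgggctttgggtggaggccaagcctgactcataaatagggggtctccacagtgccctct
Pla2g4a: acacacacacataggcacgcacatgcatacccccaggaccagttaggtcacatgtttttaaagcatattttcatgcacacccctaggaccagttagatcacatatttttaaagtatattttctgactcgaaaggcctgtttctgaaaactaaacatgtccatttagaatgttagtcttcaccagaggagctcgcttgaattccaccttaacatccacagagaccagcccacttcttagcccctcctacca
Ptgs1: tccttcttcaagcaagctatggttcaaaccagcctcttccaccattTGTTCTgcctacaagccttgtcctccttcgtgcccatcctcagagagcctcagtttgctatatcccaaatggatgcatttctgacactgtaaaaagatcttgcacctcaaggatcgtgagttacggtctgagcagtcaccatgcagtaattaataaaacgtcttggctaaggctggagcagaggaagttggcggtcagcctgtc
The monomer site of *Ptgs1* lies 204 to 199 bases before the start. Both strands were searched for the full palindrome, GNACA and TGTNC with 3 bases between them. Of the 32851 promoter windows of the same length, 0.387% hold it. The monomer site AGAACA, which 16.1% of the windows hold and which can overlap the palindrome, was also searched. So was the E-box CACGTG of the clock proteins, which 6.02% hold. The palindrome was in the window of 0 of the 9 members. A further monomer site lies 191 to 186 bases before the start of *Ptges*, which is 27723 bases inside the gene. Another lies 221 to 216 bases before a second start of *Pla2g4a*, which is 38851 bases inside the gene. An E-box lies 77 to 72 bases before the start of *Ptges2*. A match describes the letters alone, and no binding was measured in these animals.

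*Pla2g3* (chr11:3488158-3499346, RefSeq GRCm38.p6, probe A_55_P2043033) encodes a secreted phospholipase A2 related to the enzyme of bee venom. Only this probe represented the gene here. The paper reports that its *Pla2g3* effect was limited to some transcript variants, canonical ones included. During the first hour the signal intensity of control animals ran from 96.3 to 158 with a median of 117, and that of corticosterone-treated animals from 310 to 836 with a median of 492. All treated animals lay above all control animals. The group means were 121 ± 24.4 and 531 ± 169 (SD, n = 8), with a log2 fold change between them of 2.09 (adjusted p = 5.2e-10, SE 0.212).

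During the fifth hour the control animals ran from 88.6 to 150 (median 128) and the treated animals from 199 to 1152 (median 450), again without overlap. The treated animals were more widely spread than at the first hour, with an SD of 299 against 169, and the log2 fold change was 1.95 (adjusted p = 4.7e-09). In the ninth hour, the control animals ran from 69.8 to 135 (median 96.4) and the treated animals from 104 to 374 (median 237). The groups now overlapped, although the treated animal was the higher one on 8 of 8 arrays, as at both earlier time points. The log2 fold change of this hour was 1.19 (SE 0.212, 95% interval 0.76 to 1.62, adjusted p = 4.5e-04).

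Within the corticosterone-treated animals, a comparison in which a dye difference cancels, the log2 intensity of *Pla2g3* fell by 1.14 between the fifth and the ninth hour (SE 0.248, adjusted p = 0.0078) and by 1.25 between the first and the ninth hour (adjusted p = 4.1e-04). Control animals differed by -0.37 and -0.35 over the same intervals (adjusted p = 0.87 and 0.73). The effect itself was smaller at the ninth than at the first hour by a log2 difference of -0.90 (95% interval -1.51 to -0.30), with an unadjusted p of 0.0016 and an adjusted p of 0.13. Thus the decline was significant among treated animals, whereas its difference from the control animals was not significant after adjustment.

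The slides contributed unequally to the ninth hour. The log2 ratios of *Pla2g3* averaged 1.40 on slide 1, 1.55 on slide 2 and 0.41 on slide 3, whereas they were 2.17, 2.07 and 2.06 during the first hour. Without slide 3, treated animals changed by -1.05 between the first and the ninth hour (adjusted p = 0.079), and over the later interval, from hour 5 to hour 9, they changed by -0.87 without slide 1 (adjusted p = 0.41) and -0.85 without slide 3 (adjusted p = 0.33). Without normalization between arrays, the later change was -1.10 and was also not significant (adjusted p = 0.092). The higher level of treated animals passed the threshold at each time point in all 21 alternative analyses, with log2 fold changes of 1.67 to 2.27, 1.56 to 2.23 and 0.86 to 1.45.

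The median of the summed intensity of 8 astrocyte markers in treated animals was above that in control animals in the first and the fifth hour and below it in the ninth. The sum ran from 40240 to 44430 (median 42980) in control and from 44250 to 51230 (median 48770) in treated animals of the first hour, from 41050 to 52600 (43450) and from 42110 to 51770 (47400) in the fifth, and from 40230 to 47000 (44460) and from 38250 to 46120 (43420) in the ninth hour. Of the single markers, 2, 2 and 1 were higher and 1, 2 and 2 lower at the 3 time points, with median log2 fold changes of 0.06, -0.07 and -0.09. *Fgfr3*, a fibroblast growth factor receptor, had 0.42, 0.31 and -0.05 (adjusted p = 5.2e-08, 3.2e-05 and 0.53). It was chosen after its values were seen and is also among the genes most like *Pla2g3* in log2 ratio (r = 0.82). Its course therefore does not describe the list, in which other markers were lower at each time point. The part of these markers in the *Pla2g3* difference was not tested.

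**Figure D2:**
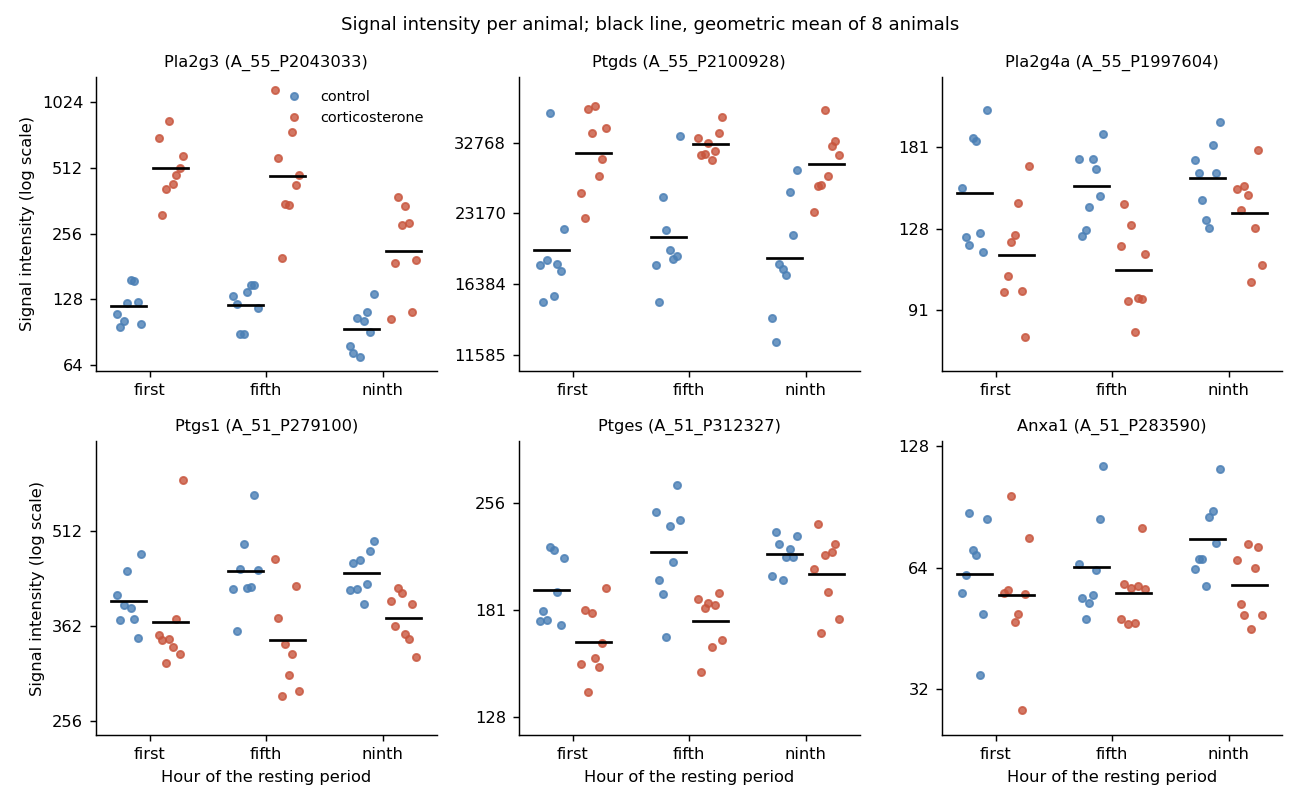
Signal intensity (y axis, arbitrary units, log scale) of 6 probes in each animal at the 3 hours of the resting period examined (x axis), with control animals in blue, corticosterone-treated animals in red and the geometric mean of 8 animals as a black line. The *Pla2g3* groups are apart at the first and the fifth hour and overlap at the ninth, and single animals lie far from their group for *Ptgds* (control, 37950, first hour) and *Ptgs1* (treated, 618, first hour). *Ptges* is shown through probe A_51_P312327 alone.

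*Pla2g4a* (chr1:149829618-149961290; probe A_55_P1997604) encodes the cytosolic phospholipase A2 that prefers arachidonic acid and is activated by calcium. Its intensity in the first hour ran from 116 to 211 (median 139) in control and from 81.2 to 167 (median 113) in corticosterone-treated animals. The ranges overlapped, and the treated animal was higher on 1 of 8 arrays. The log2 fold change was -0.38 (SE 0.117, adjusted p = 0.019). The call at this hour was lost without any 1 of the slides (adjusted p = 0.087, 0.080 and 0.083 without slides 1, 2 and 3) and without 1 array of that hour (0.056).

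In the fifth hour, control animals ran from 125 to 191 (median 156) and treated animals from 82.9 to 142 (median 106). The treated animal was again higher on 1 of 8 arrays, with a log2 fold change of -0.51 (adjusted p = 0.0016), or -0.39 (adjusted p = 0.083) without slide 3. By the ninth hour the ranges of 129 to 200 and 103 to 178 lay closer together, and the log2 fold change of -0.21 was not significant (95% interval -0.45 to 0.02, adjusted p = 0.20). The rise of treated animals from the fifth to the ninth hour was 0.34 (adjusted p = 0.31), and the change of the effect over this interval was 0.29 (adjusted p = 1).

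*Pla2g6* (chr15:79286228-79328385) encodes a calcium-independent phospholipase A2. Its brighter probe, A_55_P2003096, had intensities of 444 to 569 (median 494) in control and of 481 to 647 (median 570) in treated animals during the fifth hour. The log2 fold changes of this probe were 0.12, 0.16 and 0.12 at the first, the fifth and the ninth hour (SE of each 0.0627; adjusted p = 0.18, 0.056 and 0.19), and those of the second probe, A_51_P464860, were 0.10, 0.11 and 0.09 (adjusted p = 0.23, 0.21 and 0.31). Both probes were slightly higher in treated animals at each time point, and none of these differences was significant. For the brighter probe, the difference of the fifth hour did pass in 6 of the 21 alternatives, among them slide as a block (0.16, adjusted p = 0.025) and the log2 ratios deposited by the authors (0.15, adjusted p = 0.032).

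*Ptgs1* (chr2:36216742-36258593; probe A_51_P279100) encodes cyclooxygenase 1, the constitutive form, which in brain is known from microglia. Its intensity during the first hour ran from 347 to 472 (median 389) in control and from 317 to 618 (median 345) in corticosterone-treated animals. The highest treated animal stood alone, with the next at 372, and the log2 fold change was -0.11 (SE 0.0885, adjusted p = 0.41), or -0.18 (adjusted p = 0.087) without the array of that animal. During the fifth hour the control animals ran from 356 to 585 (median 432) and the treated animals from 280 to 462 (median 334). The treated animal was higher on 2 of 8 arrays, and the log2 fold change was -0.36 (adjusted p = 0.0022).

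This difference rested on part of the slides. The mean log2 ratio of *Ptgs1* in the fifth hour was 0.11 on slide 1, with 2 arrays, -0.55 on slide 2 and -0.49 on slide 3, and without slide 2 the log2 fold change was -0.25 (adjusted p = 0.16). In the ninth hour the ranges were 393 to 494 (median 439) and 324 to 416 (median 378), with a log2 fold change of -0.24 that came close to the threshold (adjusted p = 0.055) and passed it in 4 of 21 alternatives. Between the first and the fifth hour, the effect changed by -0.25 (unadjusted p = 0.043, adjusted p = 1).

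*Ptgs2* (chr1:150100031-150108234; probe A_51_P254855) encodes cyclooxygenase 2, the inducible form. Control and treated animals had intensities of 684 to 1099 (median 934) and 773 to 996 (median 836) during the first hour, of 800 to 1015 (median 918) and 714 to 1080 (median 918) during the fifth, and of 846 to 1151 (median 997) and 812 to 966 (median 914) during the ninth hour. The groups overlapped at all time points. The log2 fold changes were -0.13, -0.03 and -0.17 (SE of each 0.0746; adjusted p = 0.21, 0.85 and 0.096), with 95% intervals of -0.28 to 0.02, -0.18 to 0.13 and -0.32 to -0.02. In 1 alternative, without slide 1, the first-hour value was -0.26 (adjusted p = 0.021), and slide 1 alone had a mean log2 ratio of 0.26 at that hour.

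*Ptgds* (chr2:25466709-25470110; probe A_55_P2100928, printed in 10 copies that were averaged) encodes the lipocalin-type prostaglandin D synthase, a major protein of cerebrospinal fluid. During the first hour the intensity of control animals ran from 15050 to 37950 (median 18060) and that of corticosterone-treated animals from 22710 to 39260 (median 32300). A single control animal reached the upper part of the treated range, and the next control animal stood at 21450, below all treated animals. The means were 20250 ± 7415 and 31740 ± 6105 (SD, n = 8), and the log2 fold change was 0.69 (SE 0.133, adjusted p = 1.3e-04), with the treated animal higher on 7 of 8 arrays. Without the array of this control animal the value was 0.81 (adjusted p = 6.4e-06).

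At the fifth hour control animals ran from 15050 to 33910 (median 19060) and treated animals from 30030 to 37160 (median 32070). At the ninth hour these ranges were 12360 to 28660 (median 17850) and 23320 to 38380 (median 29320). On 8 of 8 arrays of either hour the treated animal exceeded its control, although the ranges overlapped, and the log2 fold changes were 0.66 (adjusted p = 2.5e-04) and 0.67 (adjusted p = 3.3e-04). The ninth-hour difference was 0.45 without slide 1 (adjusted p = 0.13), with mean log2 ratios of 0.88, 0.51 and 0.39 on slides 1, 2 and 3.

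The size of the *Ptgds* effect did not differ detectably between time points. Its change was -0.03 from the first to the fifth hour (95% interval -0.41 to 0.35) and -0.02 from the first to the ninth hour (-0.40 to 0.36; adjusted p = 1 for both). In treated animals the intensity changed by 0.06 and -0.14 over the first and second interval (adjusted p = 0.94 and 0.81), and in control animals by 0.09 and -0.15 (adjusted p = 0.93 and 0.91). A constant preference of this probe for Cy5 would have the same size at each hour and cannot be told apart from a lasting effect of corticosterone.

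Since *Ptgds* is abundant in tissues that border the hippocampus, its level was set against markers of these tissues in the same animals. Across the 24 control animals, its log2 intensity rose with the mean of 10 meningeal markers (among them *Dcn*, *Lum* and *Slc6a13*), with Pearson r = 0.82 and Spearman rho = 0.69 (adjusted p = 0.0067 and 0.016, permutation test, two-sided). Without the 2 animals farthest from the median r was 0.74 (adjusted p = 0.016), and within single hours or slides it ran from 0.67 to 0.94. Among the 24 treated animals r was 0.50 and rho was 0.49 (adjusted p = 0.14 and 0.17, permutation test), r was 0.31 without the 2 farthest animals, and within hours or slides it ran from -0.11 to 0.89. The relation was therefore found among control animals and was not significant among treated animals, and the difference between both groups was not tested.

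Meningeal markers themselves were not higher after corticosterone. Of the 10 markers, 0 were significantly higher at any time point and 1, *Slc22a6*, was lower during the fifth hour (-0.50, adjusted p = 0.012), with median log2 fold changes of -0.17, -0.27 and -0.18. Their summed intensity ran from 7859 to 13160 in control and from 5995 to 11060 in treated animals during the first hour, from 7226 to 15330 and from 5529 to 12450 during the fifth, and from 9015 to 13930 and from 7482 to 12310 during the ninth hour. In the plot of *Ptgds* against the meningeal markers, most treated animals lay above control animals of similar marker level, and no test was made of this. All treated values are from Cy5 and all control values from Cy3, so a dye preference of any of these probes enters this comparison. The part of the meningeal markers in the *Ptgds* difference was not tested. With 10 choroid plexus markers, *Ptgds* had an r of 0.11 and a rho of 0.23 in control animals (adjusted p = 0.86 and 0.60, permutation test) and an r of 0.26 and a rho of 0.36 in treated animals (adjusted p = 0.50 and 0.30), and r ran from -0.53 to 0.59 within single hours and slides. With 10 oligodendrocyte markers, r was 0.01 in both groups, and rho was 0.21 in control and -0.04 in treated animals (adjusted p = 0.98, 0.98, 0.64 and 0.96, permutation test). Of the oligodendrocyte markers, 2 were higher after corticosterone at each time point and 3, 3 and 4 were lower, with median log2 fold changes of -0.05, -0.17 and -0.24. Of 8 endothelial markers, 2 were higher and 5 lower in the first hour, 1 and 3 in the fifth, and 2 and 1 in the ninth. The part of either list in the *Ptgds* difference was not tested. The choroid plexus list is dim, with 5 of 10 genes at a mean intensity of 50 or more: *Kcne2* and *Cldn2* were well above background on 0% of the channels, *Slc4a5* on 2.1% and *Otx2* on 43.8%.

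**Figure D3:**
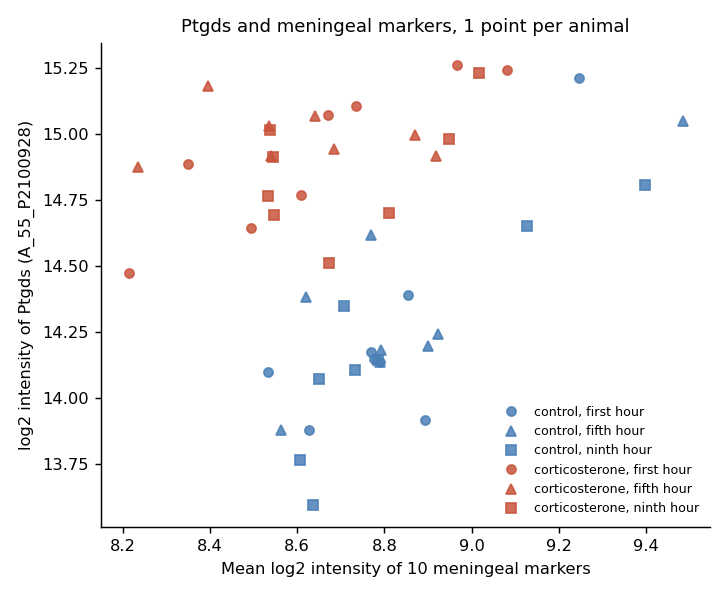
Log2 signal intensity of *Ptgds* (y axis) against the mean log2 intensity of 10 meningeal markers (x axis), 1 point for each of 24 control (blue) and 24 corticosterone-treated animals (red), with the hour given by the shape. Control animals rise along the meningeal axis (r = 0.82), and most treated animals lie above them at the same position on that axis. Control values are from Cy3 and treated values from Cy5, so a dye preference of the probes enters this offset.

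*Ptges* (chr2:30889471-30931020) encodes the inducible microsomal prostaglandin E synthase, and its 3 probes, all assigned to the same transcript, gave different results. Probe A_51_P312327 had intensities of 173 to 222 (median 186) in control and of 139 to 194 (median 159) in treated animals at the first hour, with 166 to 272 (median 224) and 148 to 191 (median 183) during the fifth hour. On 1 of 8 arrays of either hour the treated animal exceeded its control. The log2 fold changes were -0.24 (SE 0.0726, adjusted p = 0.016) and -0.32 (adjusted p = 7.4e-04). During the ninth hour the ranges were 199 to 233 and 168 to 239, the treated animal was higher on 4 of 8 arrays, and the log2 fold change was -0.09 (adjusted p = 0.42).

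Among treated animals this probe rose by 0.32 (log2) between the first and the ninth hour (SE 0.0846, adjusted p = 0.014). The rise was no longer significant without slide 1, 2 or 3 (adjusted p = 0.24, 0.13 and 0.060) or without normalization between arrays (0.31, adjusted p = 0.19), and the change of the effect over the same interval was 0.15 (adjusted p = 0.90). The first-hour difference was lost without slide 2 (-0.15, adjusted p = 0.29), without slide 3 (-0.27, adjusted p = 0.066) and with the log2 ratios of the deposited table (-0.15, adjusted p = 0.058), and the fifth-hour difference without slide 3 (-0.26, adjusted p = 0.074).

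The brightest *Ptges* probe, A_55_P1974193, had log2 fold changes of -0.03, 0.05 and -0.03 (adjusted p = 0.73, 0.49 and 0.68), with 95% intervals between -0.14 and 0.15. The dimmest, A_55_P1974189, had 0.04, 0.10 and 0.07 (adjusted p = 0.81, 0.39 and 0.55). The mean intensity over all channels was 17220 for the brightest probe, 196 for A_51_P312327 and 73.8 for the dimmest. The probes thus differed widely in signal although they are assigned to the same transcript, and the reason was not tested. In the counts of genes, *Ptges* is represented by the brightest probe. A lower level of *Ptges* in corticosterone-treated animals was thus seen with 1 of 3 probes. The sequences of the probes were not used here, so the parts of the transcript that they bind were not compared.

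**Figure D4:**
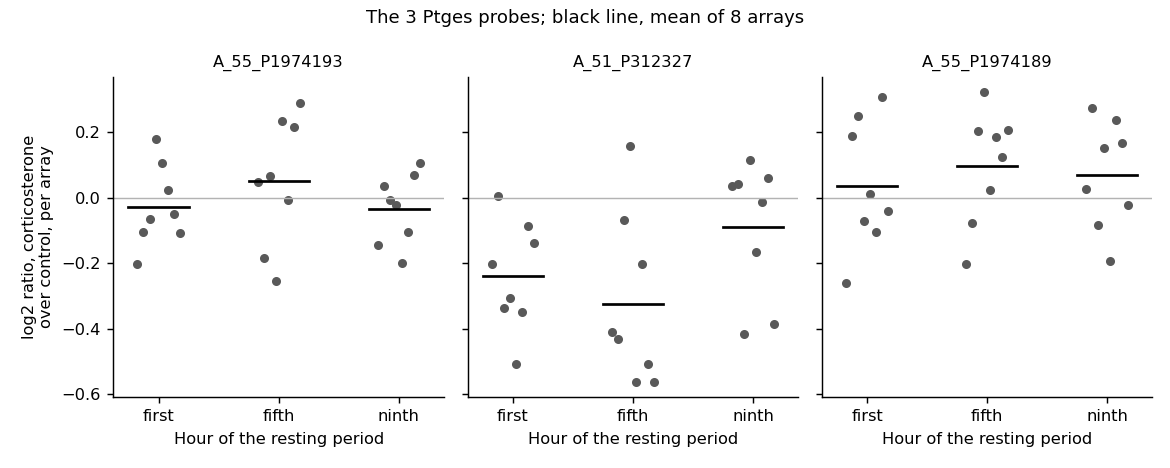
Log2 ratio of corticosterone-treated over control animal on each array (y axis) for the 3 *Ptges* probes at the first, the fifth and the ninth hour (x axis), with the mean of 8 arrays as a black line and 0 as a grey line. Probe A_51_P312327 lies below 0 on 7 of 8 arrays at the first and the fifth hour, while the other two scatter around 0.

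*Ptges2* (chr2:32395890-32402740; probe A_51_P349008) encodes a membrane-associated prostaglandin E synthase. Its intensities were 2075 to 2384 (median 2279) in control and 1925 to 2420 (median 2299) in treated animals during the first hour, and the groups overlapped at every time point. The log2 fold changes were -0.02, -0.07 and -0.07 (SE of each 0.0463; adjusted p = 0.84, 0.30 and 0.27). In control animals the probe was 0.15 higher on the log2 scale during the ninth than during the first hour, with an unadjusted p of 0.0044 and an adjusted p of 0.19.

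*Hpgd* (chr8:56294552-56321046; probe A_51_P458778) encodes the 15-hydroxyprostaglandin dehydrogenase that starts prostaglandin breakdown. Its SE was second only to that of *Pla2g3*, and single animals ran from 77.3 to 239 (median 102) in control and from 81.5 to 269 (median 103) in treated animals of the first hour. The log2 fold changes were 0.05, -0.02 and 0.06 (SE of each 0.204; adjusted p = 0.93, 0.94 and 0.88). Their 95% intervals reached from -0.36 to 0.46, from -0.43 to 0.40 and from -0.35 to 0.47, so that a difference within these bounds was not detectable. Slides differed in sign during the first hour (-0.71, -0.08 and 0.67 on slides 1, 2 and 3).

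*Anxa1* (chr19:20373434-20390671) encodes annexin A1, a glucocorticoid-responsive inhibitor of phospholipase A2 in immune cells. Its brighter probe, A_51_P283590, had dim signals of 34.7 to 87.6 (median 65.0) in control and 28.4 to 96.0 (median 55.1) in treated animals during the first hour. In the ninth hour the ranges were 57.8 to 112 (median 70.39) and 45.03 to 73.4 (median 57.97), and the groups overlapped at each time point. The log2 fold changes were -0.17, -0.21 and -0.38 (SE of each 0.156; adjusted p = 0.52, 0.34 and 0.079). The second probe, A_55_P2092826 with 10 copies, had -0.15, -0.32 and -0.39 (SE of each 0.149; adjusted p = 0.58, 0.11 and 0.070).

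Both *Anxa1* probes were thus lower in treated animals at each time point without passing the threshold. The ninth-hour ratios differed between slides, with means of -0.10, -0.70 and -0.62 for the brighter probe and of 0.00, -0.71 and -0.85 for the other on slides 1, 2 and 3. Under some alternatives a difference did pass. In the fifth hour this was the second probe with the first copy alone (-0.44, adjusted p = 0.049). In the ninth hour it was both probes, with -0.39 (adjusted p = 0.044) and -0.40 (0.047) without normalization between arrays, and, for the second probe, -0.59 (0.0085) with the first copy alone and -0.78 (0.035) without slide 1. Across control animals *Anxa1* rose with the meningeal markers (r = 0.63, adjusted p = 0.033, and rho = 0.54, adjusted p = 0.12, permutation test). Without the 2 animals farthest from the median r was 0.35 (adjusted p = 0.37, permutation test), so that its significance depended on those animals. Within single hours or slides r ran from 0.20 to 0.85 in control animals. Among treated animals r was 0.38 and rho was 0.47 (adjusted p = 0.27 and 0.17, permutation test).

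*Ptgs1* and the 10 microglia markers correlated with r = 0.39 and rho = 0.51 in control and r = 0.32 and rho = 0.37 in treated animals (adjusted p = 0.26, 0.14, 0.39 and 0.28, permutation test). Of these microglia markers, 3 were lower and 0 higher during both the first and the fifth hour, and 2 were lower during the ninth, among them *P2ry12* (-0.49, -0.62 and -0.37, adjusted p = 0.0072, 8.2e-04 and 0.050). The median log2 fold change over the 10 markers was -0.02, -0.04 and -0.08 at the 3 time points. Their summed intensity ran from 33780 to 48410 (median 41570) in control and from 29900 to 46370 (median 41270) in treated animals of the fifth hour, and its part in the *Ptgs1* difference was not tested. In all, 7 pairs of a member and a marker list were examined in each group, 14 relations over all animals, of which 2 passed the threshold.

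Across time in control animals, 0 of the 14 probes differed between the first and the fifth, the fifth and ninth or the first and ninth hour by the limma test, beside 0.0053, 0.0336 and 0.537% of all probes. At an unadjusted p under 0.05 these counts were 2, 0 and 3, beside 7.21, 6.34 and 10.2% of all probes. They came from *Ptges2* (0.13 and 0.15 from the first to the fifth and to the ninth hour), from the *Ptges* probe A_51_P312327 (0.18 and 0.17) and, over the longer interval, from the dimmest *Ptges* probe (0.17). Within treated animals 0, 1 and 2 probes differed over the same intervals (*Pla2g3* over both intervals that end at the ninth hour, *Ptges* over the longer of these), beside 0.546, 0.666 and 4.02% of all probes. The size of the effect changed significantly for 0 probes over each of the 3 intervals, beside 0.0389, 0.083 and 0.827% of all probes, and the counts at an unadjusted p under 0.05 were 1, 2 and 1, beside 4.47, 5.19 and 7.16% of all probes.

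Other genes of the pathway were counted by list, 1 brightest probe for each gene. Counted this way, 10.3% of all 23787 genes were higher and 10.4% lower during the first hour, 9.9% and 10.9% during the fifth, and 8.37% and 7.21% during the ninth hour. Of 23 other phospholipases A2 and related genes measured, not all of which encode enzymes, 0 were higher at any time point. During the first, the fifth and the ninth hour 3, 4 and 2 were lower, with median log2 fold changes of -0.10, -0.04 and -0.02. Only 13 had a mean intensity of 50 or more. *Pafah1b3*, a catalytic subunit of the acetylhydrolase of platelet-activating factor, had intensities of 1549 ± 232 in control and 1294 ± 187 in treated animals of the fifth hour (SD, n = 8; -0.26, adjusted p = 0.0069), and the call was lost without slide 3 (0.17). Its other catalytic subunit *Pafah1b2* was lower at all 3 time points (-0.13, -0.14 and -0.13, adjusted p = 9.1e-04, 4.8e-04 and 0.0017). *Pla2g5*, a secreted phospholipase of low signal, had -0.45, -0.33 and -0.44 (adjusted p = 0.0047, 0.026 and 0.0041). The remaining calls of this list were *Pla2g2d* in the first hour (-0.30) and *Pla2g1b* in the fifth, the latter well above background on only 18.8% of the channels and given no fold change.

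Of 11 other prostanoid synthases and degrading enzymes, 1 was higher and 3 were lower in the first hour, 2 were lower in the fifth and 2 in the ninth hour, with medians of -0.04, -0.02 and 0.00. *Ptges3*, the cytosolic prostaglandin E synthase that is also a co-chaperone of the glucocorticoid receptor, was lower at each time point, at 8586 ± 608 against 7484 ± 510 in the first hour (SD, n = 8), with log2 fold changes of -0.20, -0.19 and -0.17 (adjusted p = 2.3e-04, 3.3e-04 and 0.0017), the first of which was lost without slide 3 (0.070). *Hpgds*, the hematopoietic prostaglandin D synthase, was lower during the first (-0.29, adjusted p = 0.020) and ninth hour (-0.26, adjusted p = 0.040), opposite in sign to *Ptgds*. The first-hour difference of *Hpgds* was lost in 3 of 21 other settings (-0.14 without slide 2, adjusted p = 0.49) and that of the ninth hour in 4 (-0.25 without slide 1, adjusted p = 0.33). The reductase gene *Zadh2* had -0.18, -0.19 and -0.12 (adjusted p = 0.0036, 0.0016 and 0.054), of which the first was lost without slide 2 (0.068) and the second without slide 3 (0.054). Its ninth-hour difference passed the threshold in 5 of 21 alternatives, among them slide as a block (adjusted p = 0.043). Prostacyclin synthase, *Ptgis*, was higher in the first hour alone, at 75.9 ± 9.06 against 112 ± 43.5 (SD, n = 8; 0.50, adjusted p = 0.0097), a difference lost without slide 2 or slide 3.

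Prostanoid receptors and transporters (11 genes, 5 of them with a mean intensity of 50 or more) were higher for 1 and lower for 3 in the first hour, with 0 calls in the fifth and 1 lower in the ninth hour. Their median log2 fold changes were -0.20, -0.19 and -0.04. The prostaglandin transporter *Slco2a1* was lower in the first hour (332 ± 39.4 against 280 ± 33.4, SD, n = 8; -0.25, adjusted p = 0.0079) and had 0.06 in the ninth. The first-hour call was lost without slide 2 (adjusted p = 0.18) and without a single array (0.059). The prostaglandin E2 receptor genes *Ptger2* (-0.59, adjusted p = 8.3e-05, first hour) and *Ptger3* (-0.33, adjusted p = 0.030, ninth hour) were lower, and the export pump *Abcc4* was higher in the first hour (0.39, adjusted p = 0.0021). These 3 genes did not meet the rule for named pathway genes. It asks for an intensity of at least 50 and 1 direction on all 8 arrays of the hour. *Ptgir* was also called in the first hour, but it was well above background on 0% of the channels and is given no fold change.

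In the lipoxygenase branch, which makes leukotrienes and hydroxy acids from arachidonic acid, 3 of 12 genes were higher and 1 lower in the first hour, 2 were higher in the fifth and 2 in the ninth hour, with medians of 0.05, 0.04 and 0.06. *Alox12b*, a lipoxygenase known from the epidermis, had 310 ± 47.6 in control and 539 ± 122 in treated animals of the first hour (SD, n = 8), without overlap of the groups, with log2 fold changes of 0.78, 0.49 and 0.22 (adjusted p = 2.5e-07, 5.8e-04 and 0.17). *Alox5*, the enzyme of leukotriene synthesis, was higher at all 3 time points (0.36, 0.46 and 0.41, adjusted p = 0.0013, 6.1e-05 and 3.0e-04), though not in the first hour without slide 2 (0.056). The other calls were *Alox5ap* (0.16) and *Lta4h* (-0.20) in the first hour and *Alox8* (0.16) in the ninth.

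Among 9 genes of arachidonate supply and reacylation, 2 were higher in the first hour, 2 higher and 1 lower in the fifth, and 1 higher in the ninth hour. *Dagla*, the diacylglycerol lipase that makes the endocannabinoid 2-arachidonoylglycerol, was higher at each time point (0.15, 0.15 and 0.26, adjusted p = 0.017, 0.014 and 6.0e-05), at 6311 ± 562 in control and 7560 ± 273 in treated animals of the ninth hour (SD, n = 8). Its call was lost in 5 of 21 other settings for the first hour (adjusted p up to 0.24), in 2 for the fifth (up to 0.18) and in 1 for the ninth (0.071, without slide 1). *Mgll*, which breaks this endocannabinoid down, was higher in the first hour (0.12, adjusted p = 0.040), and *Lpcat3* was higher (0.12, adjusted p = 0.029) and *Acsl4* lower (-0.16, adjusted p = 0.0070) in the fifth.

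Of 12 annexins and partners of *Anxa1*, 2 were higher in the first hour, 2 higher and 2 lower in the fifth, and 1 higher and 3 lower in the ninth hour. *Anxa5* was higher at each time point (2991 ± 138 against 3437 ± 137 in the first hour, SD, n = 8; 0.20, 0.21 and 0.23, adjusted p = 2.9e-04, 2.0e-04 and 5.9e-05). *Anxa7* was higher (0.17, adjusted p = 0.0086) and *S100a11*, whose protein binds annexin A1, was lower (-0.22, adjusted p = 0.026) in the fifth hour. The call of *Anxa7* was lost without slide 1 (adjusted p = 0.12), and that of *S100a11* without slide 1 (0.10), without slide 3 (0.28) and without a single array (0.055). The remaining calls were *Anxa2* in the first hour (0.28), *Anxa4* in the fifth (-0.30) and ninth hour (-0.24) and *Anxa3* in the ninth (-0.28). *Fpr3*, a formyl peptide receptor, was called in the ninth hour but was well above background on 0% of the channels.

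**Figure D5:**
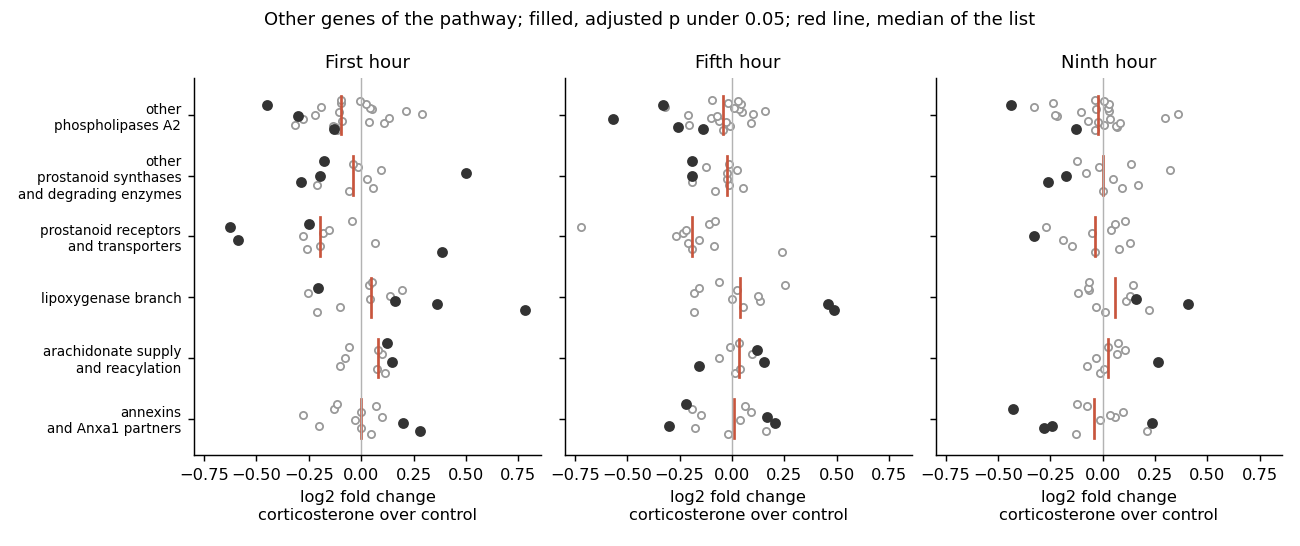
Log2 fold change of corticosterone-treated over control animals (x axis) for the other genes of the pathway, 1 point for the brightest probe of each gene, by list (rows) and hour (panels), dim probes included. Filled points have an adjusted p under 0.05 and red lines are the medians of the lists, which lie between -0.20 and 0.08.

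The genes whose log2 ratios over the 24 arrays were most like those of *Pla2g3* were *Cklf* (r = 0.83), *Idh2* (0.82), *Fgfr3* (0.82), *Glp2r* (0.81) and *Cdh19* (0.81), of which *Fgfr3* is in the list of astrocyte markers. For *Ptgds* these were *Aebp1* (0.81), *Sphk1* (0.80), *Slc13a4* (0.79), *Col1a1* (0.79) and *Asgr1* (0.78), of which *Col1a1* is in the list of meningeal markers. For *Ptgs2*, compared by its log2 intensities over the 24 control animals, they included *Hs3st1* (0.79), *Dalrd3* (0.78), *Gpr22* (0.75) and *Gm32939* (0.71). These values describe arrays that share slides, hours and normalization, and no test was made of them. Between the members themselves, the log2 ratios of *Pla2g3* and *Ptgds* had an r of 0.04 over the 24 arrays, and those of *Ptgds* and *Anxa1* an r of 0.50. Other pairs were about as strong in either direction: *Ptgs1* with *Hpgd* (0.52), *Pla2g6* with *Ptges2* (0.52), *Ptgs2* with *Hpgd* (-0.51) and *Pla2g4a* with *Ptges* (-0.50). None of the pairs was tested.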

How the data were processed

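Gene expression was measured in the hippocampus of 48 mice on 24 two-color Agilent arrays. The authors scanned the arrays and deposited, for each spot and channel, median pixel intensity values of spot and background without normalization. Also deposited were the signals as processed by the Agilent software, which were used in an alternative. A second deposited table holds log2 ratios of Cy5 over Cy3, which lay closest to values with an offset of 50 and loess alone (they differed by a median of 0.00121, and by 0.0101 after the quantile step).

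The members and the lists of genes were chosen with earlier results of these data known. As in the methods of the study, intensities were corrected by normexp (offset 50 for p values and 0 for fold changes and standard errors), normalized by loess within arrays and by the quantile method between arrays, and tested with the separate channel test of limma 3.58.1 in R 4.3.3. All 24 arrays entered 1 fit of 6 groups with a common intraspot correlation of 0.279. Control spots (3671 of 62976) were left out, outlier spots as marked by the scanner software, between 80 and 276 on an array, were set to missing, and copies of a probe were averaged. P values were adjusted over 56605 probes for each comparison after Benjamini and Hochberg, and an adjusted p under 0.05 was called significant. Signal intensity is the normalized value without offset, and SDs were taken over the 8 animals of each group. The number of arrays limits the precision. Log2 ratios of single arrays describe 1 pair of animals each.

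Probes were named through RefSeq (34566 with 1 gene symbol, 22039 without), and gene positions are those of GRCm38.p6. The columns of the authors' table that name no sample numbered 0. Named pathway genes are the up to 12 with the largest significant change, an intensity of at least 50 and 1 direction on all 8 arrays of that hour. Other pathway and marker genes given with a value were chosen after their values were seen. Alternatives were run for the members and the named pathway genes alone, so the stability of the other calls was not examined. Relations with marker lists used 100000 resamples, or exact enumeration with 8 animals, and 224 p values were adjusted together. The steps were tested on simulated data. Alternatives covered the offsets, background correction, normalization, the processed signals, dim-probe filters and copies of a probe. They also covered the test, slide as a block and each slide left out. Python 3.11.15 was used for names, relations and figures. A gene among those most like *Ptgs2* is not reported here.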

Additional observations from a re-analysis of the deposited data

Results flagged for a closer look

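In 3 of 84 groups of 8 animals (14 probes, 6 groups each), a single animal lay far from the others, its distance to the nearest animal exceeding 0.526 of the range of the group. About 1 in 20 such groups is expected to do so by chance. For *Ptgds*, the highest control animal of the first hour had an intensity of 37950, with the next at 21450. For *Ptgs1*, the highest corticosterone-treated animal of the first hour had 617.6, with the next at 372. For the *Anxa1* probe A_51_P283590, the highest corticosterone-treated animal of the fifth hour had 80.0, with the next at 58.3.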

How the results depend on the processing

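Among comparisons of single genes with an alternative, 3960 stayed on their side of the threshold, 47 lost significance and 25 gained it. Only results that were significant in the analysis reported can lose significance, so the 47 should not be read as a share of all comparisons. Of the 3960, 160 had the opposite sign, none of them significant under either setting. The number of arrays and the missing dye exchange limit all comparisons of treated with control animals. Without normalization between arrays, the counts of significant member probes were 4 for the ninth-hour effect (2 in the analysis reported), 0 for treated animals from the fifth to the ninth hour (1, *Pla2g3*, with -1.10 and adjusted p = 0.092 here), 1 for treated animals from the first to the ninth hour (2) and 1 for the change of effect, first against ninth hour (0), the last being *Pla2g3* (-0.92, adjusted p = 0.035). Without slide 1, treated animals had 0 calls from the fifth to the ninth hour and 1 from the first to the ninth. Without slide 2, the first-hour effect had 2 calls (4 in the analysis reported) and treated animals 1 from the first to the ninth hour. Without slide 3, the first-hour effect had 2 calls, the fifth-hour effect 3 (5), and treated animals 0 over both intervals. Fewer arrays enter these fits, and the cause was not tested further. Over all probes, calls for the 3 hours were 6577, 6054 and 1868 without slide 1, 4557 and 4776 for the first and ninth hour without slide 2, 5327, 4131 and 4966 without slide 3, and 6692 and 4467 for the fifth and ninth hour with probes of intensity 50 or more alone. Over all animals 2 relations with marker lists passed the threshold, *Ptgds* and *Anxa1* with the meninges in control animals. Without the 2 farthest animals 1 did (*Ptgds*), within the first, the fifth and the ninth hour 0, 0 and 1 (*Ptgds*), and within slides 1, 2 and 3 there were 0, 0 and 1. The last was another relation, *Anxa1* with the choroid plexus in treated animals (r = 0.84, adjusted p = 0.032, exact permutation test; r = 0.20 over all treated animals), while on slide 3 *Ptgds* and *Anxa1* with the meninges in control animals had r = 0.94 and 0.76 (adjusted p = 0.085 and 0.19, exact permutation test). Leaving out the array of each of the 3 single animals far from their groups was chosen after seeing the data; it moved no count of calls by more than 1.5 times. The limma test on log2 ratios, which pairs the control and the treated animal of each array, gave 4, 6 and 3 significant member probes for the first, the fifth and the ninth hour (4, 5 and 2 in the analysis reported), 10283, 10509 and 7822 over all probes, and 0 member probes for each change of effect.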
